A study of Homo sapiens with 18 samples.

Results

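The 9 genes described here carry out antigen presentation by MHC class I molecules, and were taken by gene name from a raw count table of 19901 genes. They are the heavy chain genes HLA-B, HLA-C, HLA-E and HLA-F, the light chain gene B2M, the peptide transporter genes TAP1 and TAP2, and the immunoproteasome genes PSMB8 and PSMB9. All 9 had a row, and all 9 were among the 15475 genes tested. In every library each member had at least 223 reads, so low counts limited none of them. 8 of the 9 lie on chromosome 6 and B2M lies on chromosome 15.

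A class I molecule displays short peptides from proteins made inside the cell to CD8+ T cells. The proteasome cuts these proteins, and in cells exposed to interferon the catalytic subunits LMP7 (PSMB8) and LMP2 (PSMB9) replace constitutive ones. The TAP1/TAP2 transporter moves the peptides into the endoplasmic reticulum, where they are loaded onto a heavy chain paired with beta-2-microglobulin (B2M). HLA-B and HLA-C are classical heavy chains that vary widely between people, and HLA-E and HLA-F are less variable, nonclassical ones. Tumors, those of the head and neck among them, are known to lower parts of this machinery.

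mRNA was sequenced from 3 established head and neck squamous carcinoma lines: Detroit 562, from a metastasis of a pharyngeal tumor, FaDu, from the hypopharynx, and SCC-9, from the tongue. In each line 3 control libraries came from untreated cells, and 3 from cells that received 50 ng/mL hepatocyte growth factor (HGF), the ligand of the Met receptor, for 16 h by the paper and the sample records (the series record gives 48 h). SCC-9 was grown in DMEM F12 with hydrocortisone and the other lines in MEM-α, in treated and untreated cells alike, so line and medium cannot be told apart. Each line is 1 culture model of 1 tumor, and the 3 libraries of a group came from repeated experiments. The 18 libraries held 35304770 to 44003970 counts each. Of the markers of the labelled cell type, keratins, EPCAM, CDH1 and TP63 were all detected in every library, at a summed 4091 to 16492 CPM (counts scaled to a common total), with KRT14 as low as 0.85 CPM in some libraries. Summed leukocyte markers reached 65.5 CPM and came almost wholly from CD68 and CD14, while PTPRC, CD3E and LYZ had at most 5 reads in any library. In Detroit 562 this sum was 20.3 to 40.6 CPM in control and 37.4 to 56.2 CPM in HGF libraries. Summed fibroblast markers, mostly COL1A1, reached 88.9 CPM, and in Detroit 562 were 17.1 to 21.4 CPM in control and 10.8 to 11.6 CPM in HGF libraries. Summed endothelial markers reached 8.34 CPM. The part of these markers in the results was not tested.

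Reference sequence is shown for the members that passed the test after HGF and for TAP1, whose start lies 488 bp from that of PSMB9 on the other strand, so that both genes are read outwards from a common region. Each line gives the 250 bases before a RefSeq start (GRCh38.p14), read 5′ to 3′ in the direction of the gene, and PSMB8 has 2 such starts, 632 bp apart. Capitals mark every match, on either strand, to the ISRE core GAAANNGAAA (bound by interferon regulatory factors), the GAS core TTCNNNGAA (bound by STAT factors), the NF-kB consensus or the CCAAT box CCAAT (bound by NF-Y).
PSMB9, chr6:32853942-32854191, plus strand: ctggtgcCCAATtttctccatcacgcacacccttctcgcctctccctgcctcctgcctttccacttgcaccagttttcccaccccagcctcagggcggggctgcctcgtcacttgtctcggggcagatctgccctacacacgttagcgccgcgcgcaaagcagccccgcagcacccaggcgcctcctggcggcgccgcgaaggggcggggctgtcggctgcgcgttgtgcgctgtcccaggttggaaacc
TAP1, chr6:32853705-32853954, minus strand: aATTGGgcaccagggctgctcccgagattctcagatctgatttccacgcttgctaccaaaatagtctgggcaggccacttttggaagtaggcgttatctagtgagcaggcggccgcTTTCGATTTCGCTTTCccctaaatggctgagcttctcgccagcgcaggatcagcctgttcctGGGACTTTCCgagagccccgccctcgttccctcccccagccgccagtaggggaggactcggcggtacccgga
PSMB8, first start, chr6:32844680-32844929, minus strand: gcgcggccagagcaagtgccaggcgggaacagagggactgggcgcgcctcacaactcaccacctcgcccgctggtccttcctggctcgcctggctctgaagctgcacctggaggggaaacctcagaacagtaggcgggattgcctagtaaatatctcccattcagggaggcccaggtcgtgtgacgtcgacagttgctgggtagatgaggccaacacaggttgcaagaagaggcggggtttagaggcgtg
PSMB8, second start, chr6:32844048-32844297, minus strand: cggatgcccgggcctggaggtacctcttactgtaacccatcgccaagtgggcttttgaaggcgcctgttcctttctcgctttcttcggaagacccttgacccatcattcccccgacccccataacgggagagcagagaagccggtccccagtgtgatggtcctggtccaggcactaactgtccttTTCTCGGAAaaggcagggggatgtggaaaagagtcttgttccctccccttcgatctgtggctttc
HLA-F, chr6:29723184-29723433, plus strand: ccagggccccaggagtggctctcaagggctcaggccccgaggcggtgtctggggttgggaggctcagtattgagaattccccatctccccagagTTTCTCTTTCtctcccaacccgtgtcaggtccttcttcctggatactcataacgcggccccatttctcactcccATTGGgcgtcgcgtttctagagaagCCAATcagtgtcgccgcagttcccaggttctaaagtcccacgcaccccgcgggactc

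8 of the 9 members matched a promoter window, 10 windows in all, and HLA-E had none. The ISRE core was in the windows of 4 members. TAP1 held a pair of overlapping matches, 134 to 119 bases before its start, and HLA-F held 1 at 156 to 147 bases. The other 2 members with a match were B2M, with an overlapping pair, and TAP2. Of all 35114 windows of this length in the table, 3.02% held an ISRE core. The GAS core was in the window of the second PSMB8 start and in that of another TAP1 start, not printed here (6.57% of all windows), the NF-kB consensus in windows of HLA-B, HLA-C, TAP1 and B2M (9.96%), and the CCAAT box in windows of 6 members (32%). The PSMB9 window held a CCAAT box 243 to 239 bases before its start and no match to the other 3 motifs. The PSMB9 and TAP1 windows overlap, and this box is the same site as the TAP1 match 249 to 245 bases before its start. It is thus counted for both members. The ISRE and NF-kB matches in the printed TAP1 window also lie between the TAP1 and PSMB9 starts. They fall beyond the far end of the PSMB9 window, so its length leaves them out. A match is a run of letters, not a measured binding site.

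One limit of the table bears on HLA-B and precedes all its values. The authors counted each read for every gene on its strand whose whole extent it touched, and their HLA-B extent, chr6:31269491-31357188 on the minus strand, is 87698 bp long. It covers 2640 of the 3382 bp (78.1%) of HLA-C, chr6:31268749-31272130, on the same strand. Of the HLA-C exon bases in GENCODE 44, 76.9% fall inside it, and these reads were counted for both genes. In GENCODE 44 the HLA-B interval begins 81741 bp beyond the end of HLA-C. The HLA-B row is therefore a mixture, and its count minus that of HLA-C is only a lower bound for reads that are not from HLA-C.

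In Detroit 562 the HLA-B row exceeded the HLA-C row by 4538 to 8188 reads, 54.9% to 57.0% of the HLA-B row. In SCC-9 it exceeded it by 233 to 395 reads, 15.0% to 24.8% of the row. In FaDu the HLA-B row was below the HLA-C row in all 6 libraries, by 1822 to 2801 reads, so that no amount of HLA-B reads is shown for this line. The TAP2 row has a like partner, the readthrough gene XXbac-BPG246D15.9, which spans it on the same strand, and the TAP2 count stood at 0.973 to 0.999 of the count of that gene. The PSMB9 extent overlaps those of PSMB8 and TAP1 on the opposite strand, and the counting used strand. Alleles of a line that differ from the reference may also align less well, and their part in the HLA levels was not tested.

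**Figure D1:**
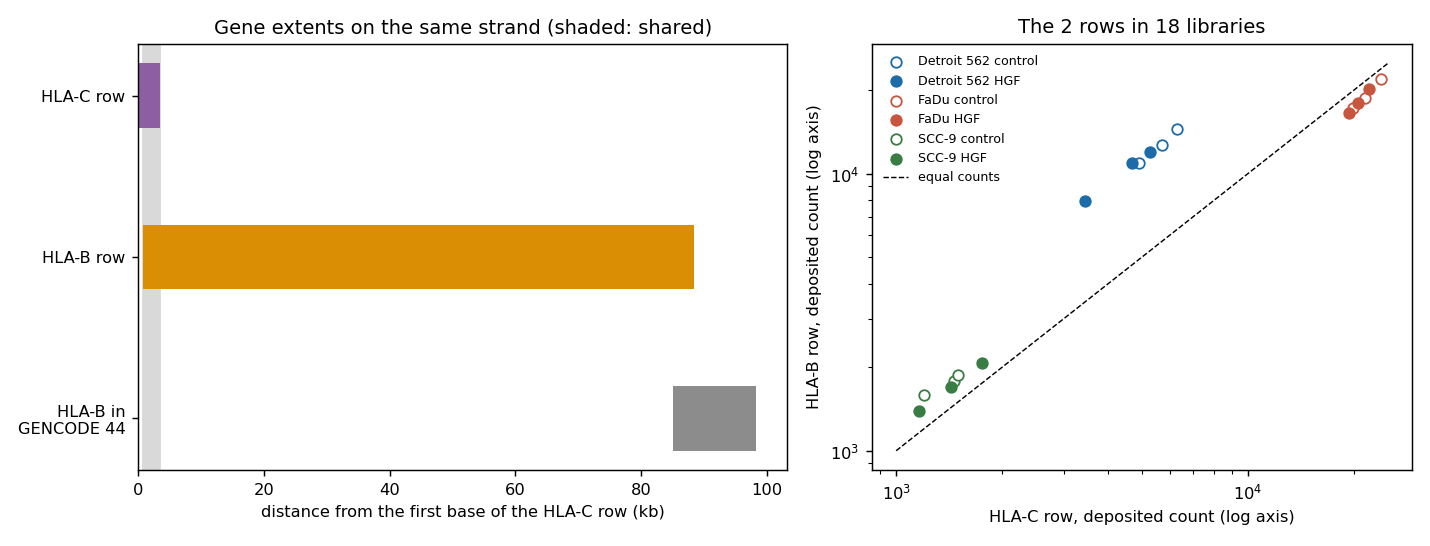
Left, extents of the HLA-C and HLA-B rows and of HLA-B in GENCODE 44, as distance in kb from the first base of the HLA-C row, with the shared stretch shaded. Right, deposited counts of the HLA-B row against the HLA-C row in the 18 libraries on log axes. All 6 FaDu libraries lie below the line of equal counts and the 12 others lie above it.

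With the mixed HLA-B row set aside, untreated lines differed most in the classical heavy chain HLA-C and in B2M, and least in HLA-E. Values between libraries are given as normalized counts, scaled by TMM factors to a common library size, and tests are quasi-likelihood tests of edgeR, with p values adjusted by the Benjamini-Hochberg method over the whole tested table. To be called, a gene needed both an adjusted p below 0.1 and a change of 0.4 or more on the log2 scale, up or down. Between untreated lines most of the genome passed: 61% of genes for Detroit 562 against FaDu, 65.4% for Detroit 562 against SCC-9 and 64.2% for FaDu against SCC-9. The count of 6 of 9 members in each of the 3 comparisons is close to these shares.

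HLA-C had normalized counts of 20447, 20080.1 and 22439 in untreated FaDu, 5950.0, 6226 and 5288 in Detroit 562, and 1151, 1394 and 1532 in SCC-9. The 3 lines did not overlap, with FaDu 3.61-fold above Detroit 562 (adjusted p = 2.73e-09, edgeR) and 15.4-fold above SCC-9 (adjusted p = 7.01e-13, edgeR). B2M ran in another order. Untreated Detroit 562 had 34616, 35508 and 32189.6 normalized counts, FaDu 23161, 22997 and 24193, and SCC-9 8285, 8163 and 9119. Its level in Detroit 562 was 1.45-fold that in FaDu (adjusted p = 1.05e-06, edgeR) and 4.00-fold that in SCC-9 (adjusted p = 1.40e-13, edgeR). FaDu thus had the highest HLA-C and Detroit 562 the highest B2M, and SCC-9 was lowest in both. The HLA-B row, which includes HLA-C reads, had 17325 to 20724 normalized counts in untreated FaDu, 11818 to 13811 in Detroit 562 and 1529.7 to 1923 in SCC-9. All 3 differences of this row were called, at log2 values of -0.51 for Detroit 562 minus FaDu, 2.93 for Detroit 562 minus SCC-9 and 3.44 for FaDu minus SCC-9.

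TAP1 was the 1 member called higher in SCC-9 than in both other lines. Its untreated normalized counts were 3894, 3739.8 and 3845 there, against 1489 to 1854 in Detroit 562 and 1585 to 1904 in FaDu. SCC-9 stood 2.21-fold above each of the other lines (adjusted p = 4.93e-07 and 5.14e-07, edgeR), which did not differ from each other beyond their spread (log2 difference 0.00, 95% interval -0.27 to 0.28). Its partner TAP2, whose mean was also highest in SCC-9, varied little, from 4726 to 6700.1 over the 9 untreated libraries, and no difference between lines reached the fold minimum (largest log2 difference -0.26 ± 0.09 SE, Detroit 562 minus SCC-9).

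HLA-E, a ligand of inhibitory receptors on natural killer cells, ranged from 6349 to 7127 over the 9 untreated libraries. Its largest difference between lines was a log2 of 0.11 ± 0.05 (SE), FaDu minus SCC-9, below the fold minimum. HLA-F was highest in Detroit 562 at 751 to 853, then SCC-9 at 571 to 738 and FaDu at 358 to 410.3. FaDu was called lower than either (adjusted p = 7.78e-06 and 4.57e-04, edgeR), and Detroit 562 minus SCC-9 was a log2 of 0.36 ± 0.15 (SE), under the minimum.

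The immunoproteasome genes were highest in Detroit 562. PSMB8 had 2634 to 3445 normalized counts there, 1880.4 to 1949.7 in FaDu and 1382 to 1497 in SCC-9, and all 3 differences were called. PSMB9 had 663 to 1144 in Detroit 562, 611 to 629 in FaDu and 651 to 698 in SCC-9. Detroit 562 overlapped SCC-9 because its replicate 3 stood at 663 where the other replicates were over 1000. PSMB9 was called higher in Detroit 562 than in SCC-9 (log2 0.48 ± 0.21 SE, adjusted p = 0.0519, edgeR). This call was lost without Detroit 562 control replicate 1 or 2 or SCC-9 control replicate 2 (adjusted p = 0.229, 0.139 and 0.117). FaDu and SCC-9 did not overlap, with FaDu lower, but FaDu minus SCC-9 did not pass the test (log2 -0.14 ± 0.21 SE, adjusted p = 0.574, edgeR). The call of PSMB8 in FaDu over SCC-9 (log2 0.41) fell to 0.39, under the minimum, without SCC-9 control replicate 1.

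Per length, as CPM divided by the exon bases of GENCODE 44, the genes can be roughly ordered, HLA-B left out. The counts cover whole gene extents, introns included, while the divisor joins the exons of all transcripts in another release. The order therefore depends on the annotated lengths. In untreated Detroit 562 the order was B2M at 273 ± 13.7 CPM per kb (SD, n = 3), HLA-C at 57.9 ± 4.79, HLA-E at 57.1 ± 2.77, PSMB8 at 22.7 ± 3.30, TAP2 at 12.5 ± 1.04, TAP1 at 9.12 ± 1.11, PSMB9 at 7.06 ± 1.88 and HLA-F at 4.71 ± 0.318. HLA-C and HLA-E, as well as TAP1 and PSMB9, lay within their spread of each other. In FaDu HLA-C led at 209 ± 12.6 CPM per kb, with B2M at 187 ± 5.18. In SCC-9 B2M led at 68.1 ± 4.16, followed by HLA-E at 56.0 ± 2.47 and TAP1 at 20.1 ± 0.415, while HLA-C came after TAP2 at 13.5 ± 1.92. In all 3 untreated lines PSMB9 and HLA-F had the lowest means of the 8 genes per length.

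**Figure D2:**
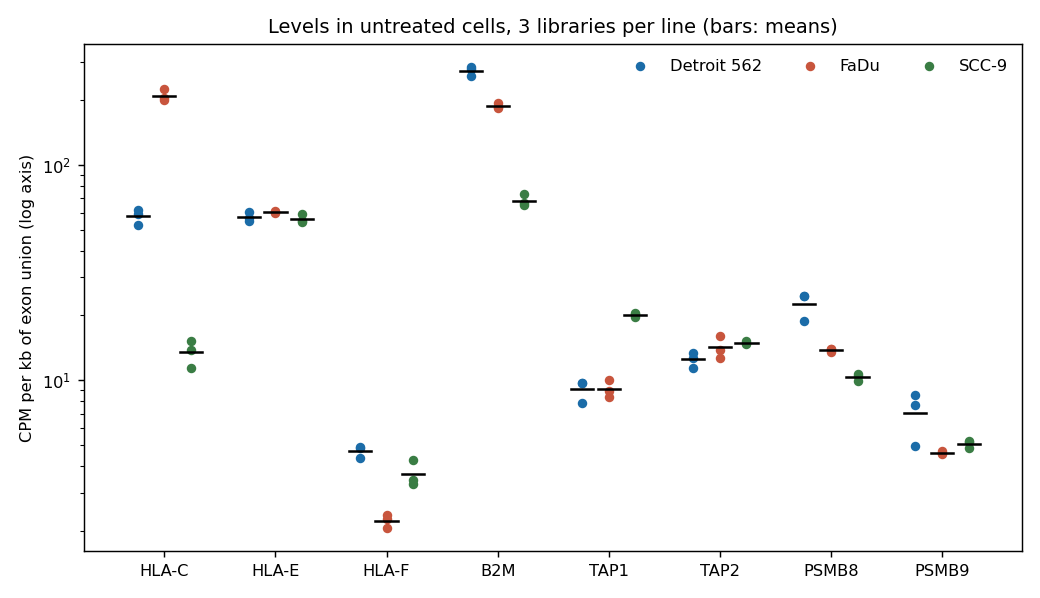
Level of 8 members in untreated cells, as CPM per kb of exon union on a log axis, with 1 point per library, 3 libraries per line, and bars for means. HLA-E lies between 54.2 and 60.8 CPM per kb in all 9 libraries, while HLA-C spans 11.4 to 223.

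After HGF the immunoproteasome gene PSMB9 was the member that changed most, and it fell by a log2 of 1.02 ± 0.22 (SE) in Detroit 562, to 0.493 of its control level. HLA-F and PSMB8 were called lower in the same line. In Detroit 562, 3 of 9 members were called lower, where 11.7% of all genes were, and 0 were called higher, where 6.16% were. The median log2 fold change of the members was -0.21, against -0.01 over all genes tested, and 7 of 9 lay below 0, against 50.7% of all genes. This median is the value of the mixed HLA-B row, and HLA-B and HLA-C, which share reads, are both among the 7.

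PSMB9 had normalized counts of 1144, 1029 and 663 in control and 556, 569 and 272 in HGF-treated Detroit 562. The groups did not overlap, and replicate 3 was the lowest of each (adjusted p = 0.00443, edgeR; exact two-sided permutation p = 0.1, the smallest that 3 against 3 libraries allow). PSMB8, the neighboring gene, had 3416, 3445 and 2634 in control and 2719, 2587 and 1814 with HGF. Its groups overlapped, since control replicate 3 was below HGF replicate 1, but it was lower in each of the 3 same-numbered pairs. The fold change of PSMB8 was a log2 of -0.41 ± 0.13 (SE, adjusted p = 0.0272, edgeR), just past the minimum. It was no longer called without control replicate 1 (-0.36, adjusted p = 0.124), control replicate 2 (-0.35, 0.115) or HGF replicate 3 (-0.25, 0.118), nor in a fit of the 6 Detroit 562 libraries alone (adjusted p = 0.123).

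HLA-F, a nonclassical heavy chain, had 853, 839 and 751 normalized counts in control and 612, 580.5 and 384 with HGF in Detroit 562. The groups did not overlap, and the log2 fold change was -0.63 ± 0.15 (SE, adjusted p = 0.00799, edgeR). B2M, the light chain shared by all class I molecules, had 34616, 35508 and 32189.6 in control and 28769, 31839 and 28672 with HGF. It also did not overlap between groups and passed the p threshold (adjusted p = 0.0357, edgeR), but its log2 fold change of -0.20 ± 0.06 (SE) was below the minimum. The fall of B2M was thus small, to 0.873 of control.

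TAP2 moved the other way in Detroit 562. Its normalized counts were 4726, 5264 and 5582 in control and 6163, 6121 and 5914 with HGF, without overlap, and its log2 fold change of 0.23 ± 0.09 (SE, adjusted p = 0.0625, edgeR) was below the minimum. TAP1, the other subunit of that transporter, had 1853, 1854 and 1489 in control and 1821, 1634 and 1141 with HGF, a log2 difference of -0.18 ± 0.13 (SE, adjusted p = 0.346, edgeR) that did not pass. The classical heavy chain HLA-C had a log2 difference of -0.24 ± 0.13 (SE, adjusted p = 0.196, edgeR) and the HLA-B row one of -0.21 ± 0.13 (SE, adjusted p = 0.272, edgeR), and their groups overlapped. With the HLA-C row subtracted, the HLA-B row gave -0.18 ± 0.12 (SE, adjusted p = 0.315, edgeR). HLA-E stood at 0.06 ± 0.05 (SE, adjusted p = 0.409, edgeR).

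**Figure D3:**
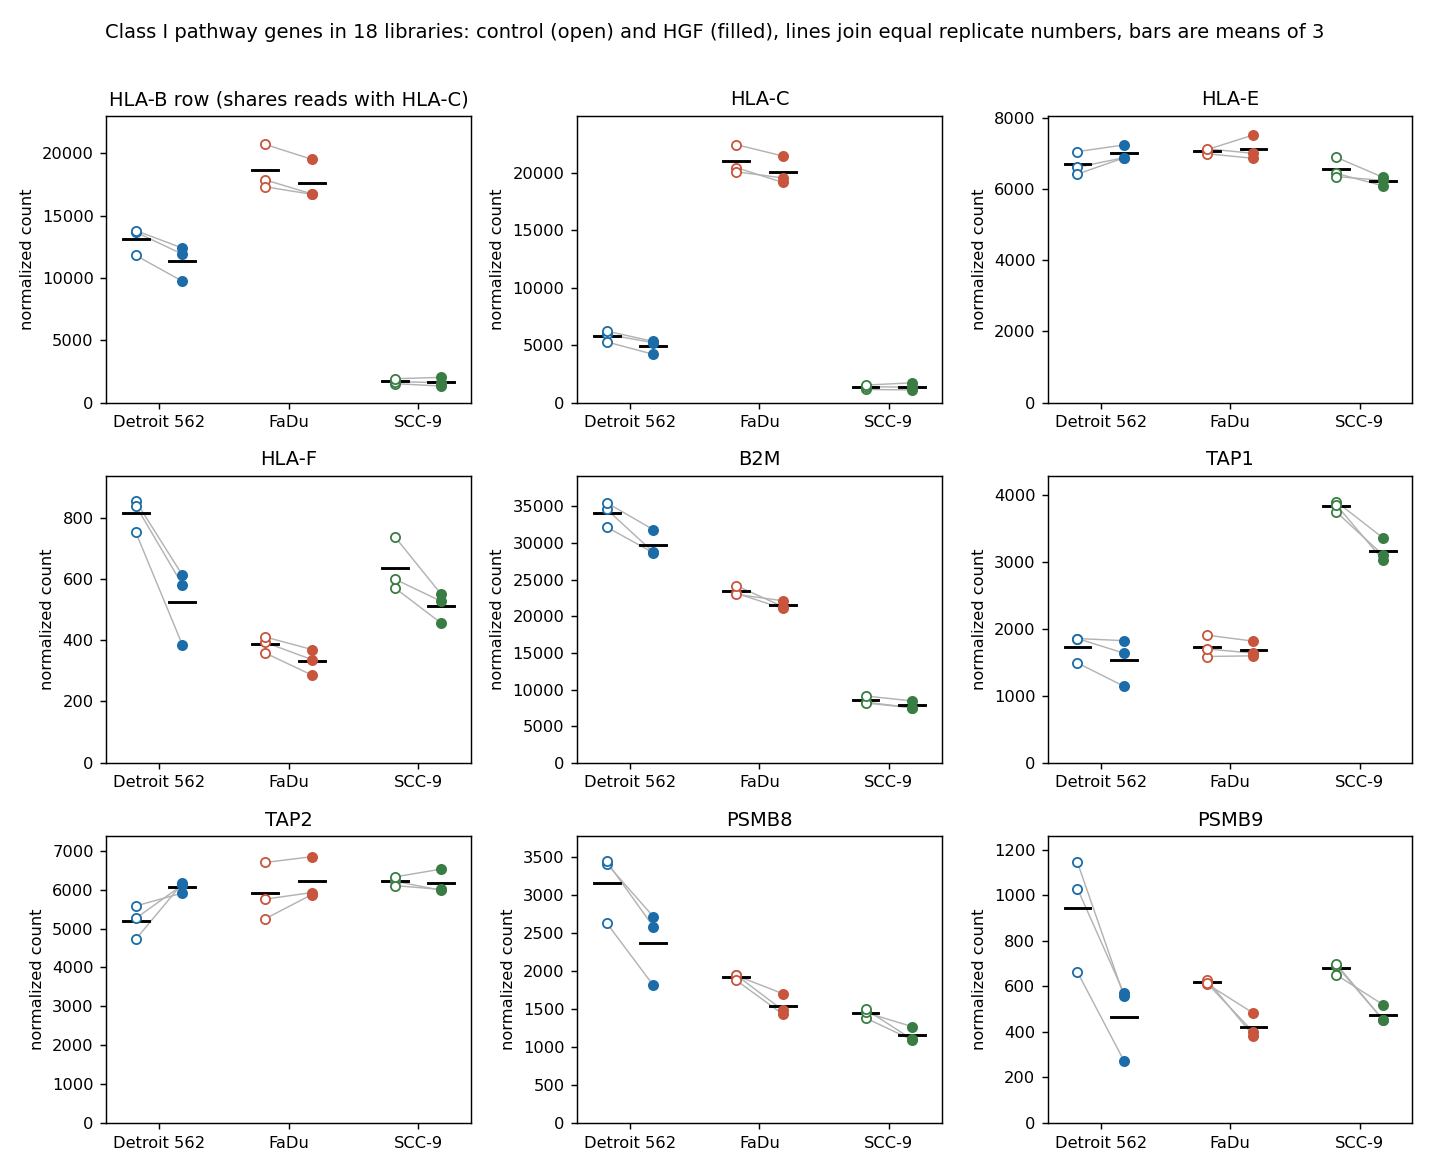
Normalized counts of the 9 members in the 18 libraries, a panel per gene with the axis from 0. Open points are control and filled points HGF libraries, grey lines join libraries of 1 line with the same replicate number, and bars are means of 3. PSMB9, PSMB8, HLA-F and B2M slope downward in all 9 pairs each, and TAP2 slopes downward in 2 of 9.

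In FaDu and SCC-9 no member was called. Nor were many other genes: edgeR called 4 of 15475 (0.0258%) in FaDu, where 1247 had a raw p under 0.05, and the share was 0% in SCC-9, where 641 had a raw p under 0.05. The paper, with DESeq2 at the same thresholds, reports more genes in both lines, so these low shares belong to the edgeR fit without a block. The replicate numbers were taken to pair the libraries of a line. When the replicate number was added to the fit as a block, PSMB9 was called in both lines, among 3.6% of all genes called lower in FaDu and 1.41% in SCC-9. Among the 9 rows as deposited this was the only one whose call in a line changed under the block.

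PSMB9 had 629, 611 and 615 normalized counts in control and 382, 482 and 399 in HGF-treated FaDu. The groups did not overlap, and the log2 fold change was -0.56 ± 0.22 (SE, adjusted p = 0.572, edgeR), or -0.56 ± 0.09 (SE, adjusted p = 0.00155) with the block. In SCC-9 it had 691, 651 and 698 in control and 453, 519.9 and 454 with HGF, again without overlap. There the log2 fold change was -0.52 ± 0.22 (SE, adjusted p = 1, edgeR), or -0.52 ± 0.09 (SE, adjusted p = 0.00681) with the block. With the block and 1 pair left out, PSMB9 was called in FaDu without any 1 of the pairs and in SCC-9 without pair 1 or 2, but not without pair 3.

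PSMB8 moved by nearly the same amount in these lines, without reaching the minimum: -0.32 ± 0.13 (SE) on the log2 scale in FaDu, where its 1949.7 of control replicate 1 was the highest and its 1433 of HGF replicate 3 the lowest, and -0.32 ± 0.13 (SE) in SCC-9. Its groups did not overlap in either line. HLA-F had log2 differences of -0.23 ± 0.16 (SE) in FaDu, with overlap, and -0.32 ± 0.15 (SE) in SCC-9, without. B2M differed by -0.12 ± 0.06 (SE) in FaDu and -0.12 ± 0.07 (SE) in SCC-9. Without the block none of these passed the test in its own line. With it PSMB8 in FaDu and SCC-9 passed the p threshold (adjusted p = 0.00323 and 0.00990, edgeR), below the fold minimum. So did HLA-F in SCC-9 and B2M in FaDu (adjusted p = 0.0717 and 0.0698, edgeR). HLA-F in FaDu and B2M in SCC-9 did not (adjusted p = 0.141 and 0.148, edgeR).

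TAP1 in SCC-9, the line where it was highest, had 3894, 3739.8 and 3845 normalized counts in control and 3354, 3098 and 3026 with HGF. The groups did not overlap, and the log2 difference was -0.28 ± 0.13 (SE, adjusted p = 1, edgeR). With the block TAP1 in SCC-9 passed the p threshold (adjusted p = 0.0139, edgeR), below the fold minimum. In FaDu the TAP1 difference was -0.04 ± 0.13 (SE). TAP2, HLA-C and the HLA-B row differed by less than 0.1 on the log2 scale in both lines, and HLA-E by 0.01 ± 0.05 (SE) in FaDu and -0.08 ± 0.05 (SE) in SCC-9. With the HLA-C row subtracted, the HLA-B row in SCC-9 gave -0.47 ± 0.14 (SE, adjusted p = 0.909, edgeR), and -0.47 ± 0.09 (SE, adjusted p = 0.0118) with the block, which passed both thresholds, on 233 to 395 reads per library.

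**Figure D4:**
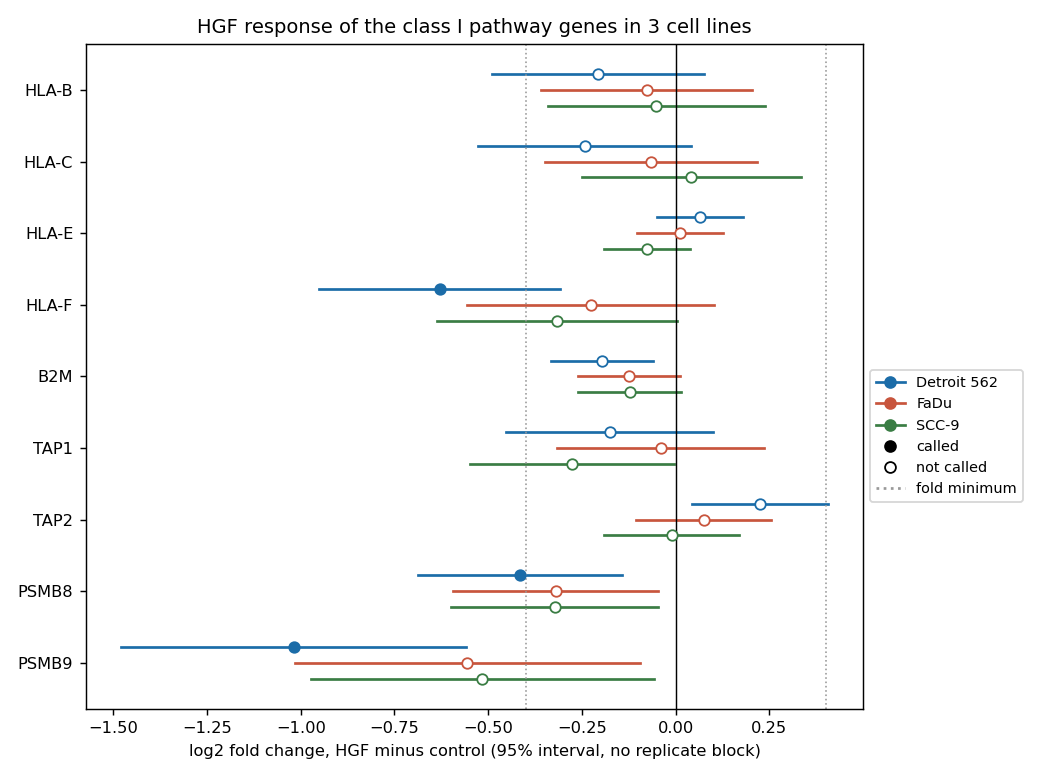
Log2 fold change, HGF minus control, of the 9 members in 3 lines with 95% intervals from edgeR without the replicate block. Filled points passed both thresholds, open points did not, and dotted lines mark the fold minimum of 0.4. PSMB9 has the lowest value of the 9 members in every line (-1.02 in Detroit 562, -0.56 in FaDu, -0.52 in SCC-9).

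Averaged over the 3 lines, PSMB9 was the 1 member called (log2 -0.70 ± 0.13 SE, adjusted p = 0.00357, edgeR), where 4.88% of all genes were called lower. HLA-F (-0.39 ± 0.09 SE, adjusted p = 0.00916), PSMB8 (-0.35 ± 0.07 SE, adjusted p = 0.00693) and B2M (-0.15 ± 0.04 SE, adjusted p = 0.0148) passed the p threshold of edgeR with values under the fold minimum. HLA-F lay so near to it that it was called without any 1 of 7 libraries, at -0.40 to -0.43: Detroit 562 control replicate 3, Detroit 562 HGF replicates 1 and 2, FaDu control replicate 1, FaDu HGF replicate 3, SCC-9 control replicate 1 and SCC-9 HGF replicate 3. Counted by gene, all 9 same-numbered pairs fell for PSMB9, PSMB8, HLA-F and B2M. For TAP1, HLA-C and the HLA-B row, which shares reads with HLA-C, 8 of 9 fell. TAP2 was lower in 2 of 9 pairs and HLA-E in 5 of 9. PSMB9, PSMB8, HLA-F and B2M had passed the p threshold on the same libraries, so their pairs are no separate test. With line means subtracted, PSMB8 and PSMB9 correlated at 0.97 and HLA-F and PSMB9 at 0.90. The pairs of different genes are therefore not independent. No such share is given for all genes.

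Whether the lines responded differently was tested as the difference of their responses, called at the adjusted p alone. Without the block no member was called, where 0.239% of genes were for Detroit 562 against FaDu, 0.924% for Detroit 562 against SCC-9 and 0% for FaDu against SCC-9. A raw p under 0.05 was held by 1788, 2378 and 337 genes in these comparisons. With the block, 3 of 9 members were called between Detroit 562 and FaDu, where 19.1% of genes were, and 4 of 9 between Detroit 562 and SCC-9, where 26.9% were. Between FaDu and SCC-9, 1.32% of genes and 0 members were called.

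PSMB9 fell further in Detroit 562 than in FaDu by a log2 of -0.48 ± 0.13 (SE, adjusted p = 0.0293, edgeR with the block) and than in SCC-9 by -0.53 ± 0.13 (SE, adjusted p = 0.0125). HLA-F differed by -0.42 ± 0.13 (SE, adjusted p = 0.0502) and -0.33 ± 0.12 (SE, adjusted p = 0.0762). HLA-C differed by -0.18 ± 0.07 (SE, adjusted p = 0.0907) and -0.28 ± 0.07 (SE, adjusted p = 0.0143), and TAP2 by 0.24 ± 0.07 (SE, adjusted p = 0.0358) between Detroit 562 and SCC-9. How far these blocked values rest on single pairs was not tested, since the block without a pair was not run for differences of responses. In the fit without the block, the differences moved when a single library was left out, which breaks its pair. For PSMB9, HLA-F and HLA-C, replicate 3 of Detroit 562 was the lowest in control and in HGF libraries alike. Leaving out only its HGF library keeps its low control. Without Detroit 562 HGF replicate 3, in the fit without the block, the differences from FaDu and from SCC-9 were -0.19 and -0.24 for PSMB9 (-0.46 and -0.50 with all libraries), -0.22 and -0.13 for HLA-F (-0.40 and -0.31) and -0.08 and -0.18 for HLA-C (-0.18 and -0.28). PSMB9 against FaDu was also -0.30 without Detroit 562 control replicate 1, and HLA-C against SCC-9 was -0.18 without SCC-9 control replicate 1 and -0.10 without SCC-9 HGF replicate 3. For PSMB8 neither difference was called, and without the block its response in Detroit 562 minus that in FaDu was -0.09 with a 95% interval of -0.48 to 0.29.

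Partner genes of the pathway were taken from 4 lists, 35 genes in all. None was called in FaDu or SCC-9, where 0.0258% and 0% of all genes were. With the block none was called either, where 5.6% and 1.97% were. Of the 35, 23 lay below 0 in FaDu and 24 in SCC-9, against 51.1% and 49.2% of all genes. Averaged over the 3 lines, 2 of 7 loading and trimming genes, 1 of 13 transcription factors and 0 others were called, all lower, where 4.88% of all genes were called lower. Of the peptide loading and trimming list, 4 of 7 were called lower in Detroit 562, where 11.7% of all genes were, and 0 higher, where 6.16% were, with a median log2 fold change of -0.53 against -0.01 over all genes. They were TAPBP (tapasin, which bridges the transporter and the heavy chain, -0.61 ± 0.15 SE), its relative TAPBPL (-0.66 ± 0.18), and the peptide-trimming aminopeptidases ERAP1 (-0.53 ± 0.09) and ERAP2 (-0.62 ± 0.13). Their adjusted p values ran from 0.00129 to 0.0131 (edgeR), and all 4 were called without any 1 of the Detroit 562 libraries. The general chaperones CALR, CANX and PDIA3 were not called.

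Of the 8 proteasome partners, 2 were called lower and 1 higher in Detroit 562 (11.7% and 6.16% of all genes), with a median of 0.09. PSMB10, the third catalytic immunoproteasome subunit, fell by 0.48 ± 0.14 (SE, adjusted p = 0.0183, edgeR) on the log2 scale, and PSME1, a subunit of the interferon-inducible PA28 activator, fell by 0.43 ± 0.14 (SE, adjusted p = 0.0325, edgeR). PSME3, the nuclear PA28 subunit, rose by 0.40 ± 0.10 (SE, adjusted p = 0.0105, edgeR). The constitutive subunits whose places the immunoproteasome subunits take gave 0.18 ± 0.06 (SE) for PSMB5, -0.01 ± 0.08 for PSMB6 and 0.33 ± 0.07 for PSMB7. PSMB5 and PSMB7 passed the p threshold (adjusted p = 0.0322 and 0.00335, edgeR) below the fold minimum. In Detroit 562 the 3 catalytic immunoproteasome genes were thus called lower, while no constitutive one was. Without Detroit 562 control replicate 1 no partner of this list was called, nor without HGF replicate 3, and without control replicate 2 PSMB10 was the 1 called. Without control replicate 3 or HGF replicate 1 of that line 5 were called. PSME1 was not called in a fit of the 6 Detroit 562 libraries alone (-0.43, adjusted p = 0.109, edgeR). PSME3 fell just below the minimum with DESeq2 size factors (0.399) and in the DESeq2 fits without and with its prior (0.399 and 0.397).

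Of 13 transcription factors known to act on class I genes, 3 were called lower in Detroit 562 and 0 higher (11.7% and 6.16% of all genes), with a median of -0.03. IRF1, which binds ISRE sequences, fell by 1.00 ± 0.15 (SE, adjusted p = 6.53e-04, edgeR), STAT2 by 0.54 ± 0.11 (SE, adjusted p = 0.00345, edgeR), and RFX5, a subunit of the RFX complex at class I and II promoters, by 0.55 ± 0.14 (SE, adjusted p = 0.0104, edgeR). NLRC5, the class I transactivator, stood at 0.11 ± 0.13 (SE, adjusted p = 0.564, edgeR). Of the 7 interferon receptor and kinase genes, IFNGR1, the ligand-binding chain of the interferon gamma receptor, was the 1 called lower (-0.47 ± 0.13 SE, adjusted p = 0.0163, edgeR), a share near that of all genes. IFNGR2, the other chain of that receptor, stood at 0.32 (adjusted p = 0.0328, edgeR), past the p threshold and below the fold minimum. Without Detroit 562 control replicate 2 IFNGR1 stood at -0.39, under the minimum, while IRF1, STAT2 and RFX5 were called without any 1 of the 6 libraries.

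**Figure D5:**
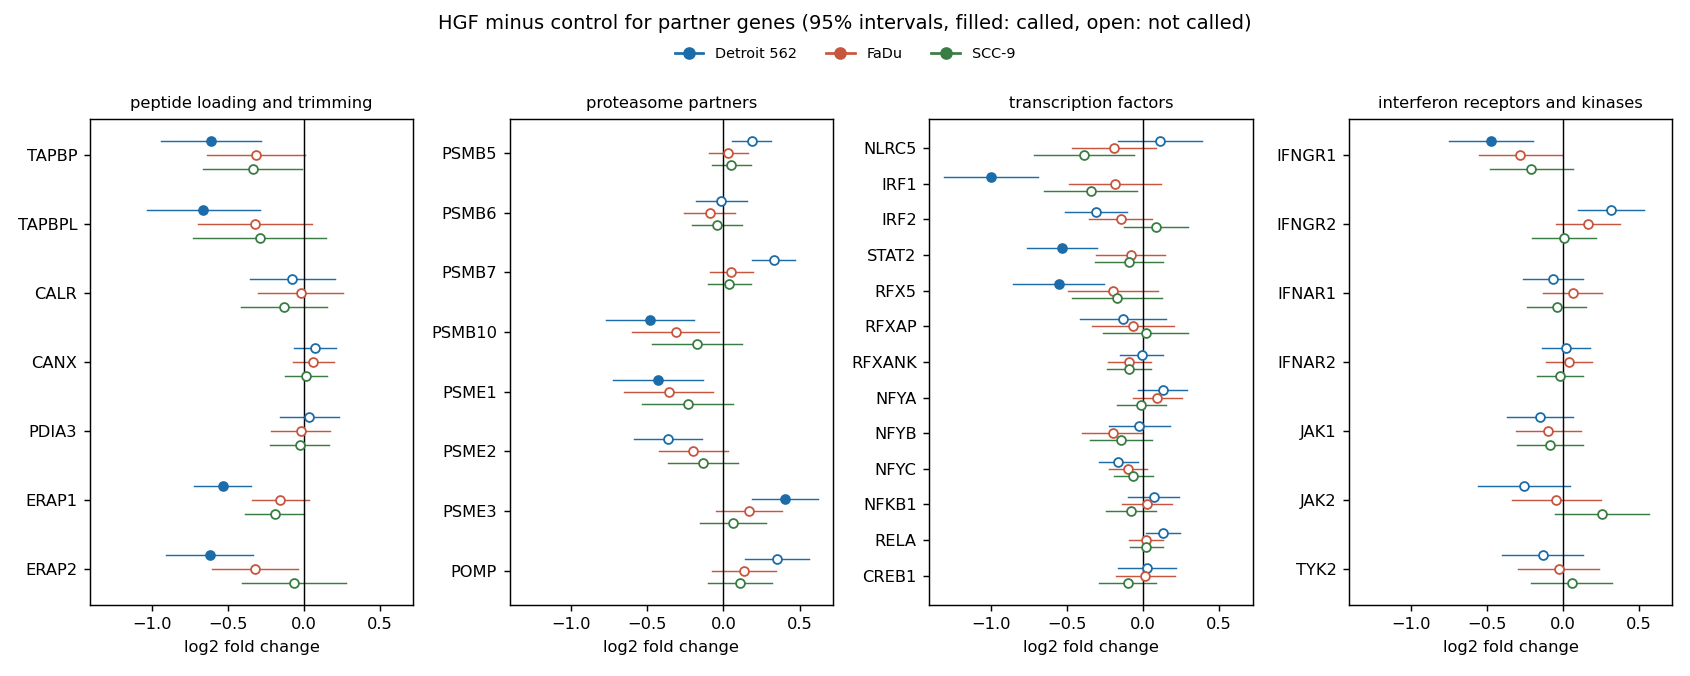
Log2 fold change, HGF minus control, with 95% intervals for the 35 partner genes in 4 lists and 3 lines (edgeR without the block). Filled points were called, all of them in Detroit 562: 10 lie below 0 and 1, PSME3, above.

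Across the 18 libraries, after subtraction of each gene's mean in its line, PSMB8 and PSMB9 had a Pearson correlation of 0.97, HLA-F and PSMB9 one of 0.90, and TAP1 and PSMB9 one of 0.77. TAP2 correlated at -0.51 with PSMB8 and -0.54 with PSMB9. HLA-B and HLA-C correlated at 0.97, but they share reads. These points include the HGF libraries and share library preparation and depth, so the values are given as a description. The 5 genes outside the members most like their mean on this scale were IFITM1 (0.95), IFITM2 (0.94), OBSL1 (0.93), IFITM3 (0.92) and VSNL1 (0.92), of which the 3 IFITM genes code for interferon-induced membrane proteins. On levels without that subtraction they were IFI35 (0.91), TMEM255A (0.90), GRHL2 (0.90), IGSF10 (0.90) and MATN2 (0.90), all over 18 libraries.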

How the data were processed

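mRNA libraries of 18 samples, 3 control and 3 HGF in each of 3 lines, were analysed from the deposited table of raw counts. Per the labels and the methods, the authors used a stranded mRNA kit, trimmed reads with Cutadapt (1.16 in the submitters' processing notes), aligned them with STAR 2.5.2b to GRCh38.p12 with a GENCODE annotation and counted reads over whole gene extents on the gene's strand with bedtools. These deposited counts are whole numbers without normalization, and a read in overlapping genes was counted for each, so the totals of 35304770 to 44003970 are not read numbers.

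Counts were filtered with filterByExpr (15475 of 19901 genes left), normalized by TMM and fitted in R 4.3.3 with edgeR 4.0.16 (quasi-likelihood test), 1 mean per line and treatment over all libraries. P values were adjusted over all genes tested. Calls needed both an adjusted p below 0.1 and a change of 0.4 or more on the log2 scale, and for differences of responses the first alone. Normalized counts are CPM scaled to a library size of 40094689. Levels per kb used the exon union of GENCODE 44. The fit was tested on simulated counts.

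Libraries of 1 line with the same replicate number deviated together: the correlation across genes of their deviations from the group means was 0.161 to 0.563 in the 9 pairs. On these values the numbers were taken to pair the libraries. Different numbers gave means of -0.227 to -0.136. Centring on the group means forces these below 0 when same-number values lie above 0, so they add no evidence. The pairing comes from the numbers in the sample titles. Nothing else in the labels ties the replicates to a day or batch. Alternatives were the replicate block, DESeq2 1.42.0 with and without its fold change prior, DESeq2 size factors, 2 other filters, only the lines compared, each library left out in turn, and, chosen after seeing the data, the HLA-B row minus the HLA-C row (set to 0 in FaDu, where it was negative) and the block without 1 pair.

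All 9 members are named, and of the partner lists the called genes and PSMB5, PSMB6, PSMB7, PSMB10, TAPBP, NLRC5 and IRF1. CALR, CANX, PDIA3 and IFNGR2 were named after their values were seen, the other partners are given by counts, and 2 further genes of the partner and marker lists were not analysed here. Genes most like the members were the 5 with the highest Pearson correlation with the members' mean z-score, HLA genes left out. Members and lists were chosen with earlier results of these data known. Promoter windows are from RefSeq (GRCh38.p14).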

Additional observations from a re-analysis of the deposited data

Results flagged for a closer look

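The responses of 4 members differed between lines in a test of the difference itself, edgeR with the replicate block, while the fit without the block called none. The block called 19.1% of all genes between Detroit 562 and FaDu and 26.9% between Detroit 562 and SCC-9. The log2 difference between Detroit 562 and FaDu was -0.48 for PSMB9, -0.42 for HLA-F and -0.18 for HLA-C. Between Detroit 562 and SCC-9 it was -0.53 for PSMB9, -0.33 for HLA-F, -0.28 for HLA-C and 0.24 for TAP2. For HLA-E all 3 pairs were higher with HGF in Detroit 562 and all 3 were lower in SCC-9, and the difference of the responses was 0.14 on the log2 scale (adjusted p = 0.388, edgeR, or 0.103 with the block), which did not pass the test.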

How the results depend on the processing

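With the replicate block, the count of members called rose from 0 to 1 in FaDu and in SCC-9, and for the difference of responses from 0 to 3 between Detroit 562 and FaDu and from 0 to 4 between Detroit 562 and SCC-9. The share of all genes called rose as well, from 0.0258% to 5.6% in FaDu and from 0% to 1.97% in SCC-9. For the differences of responses it rose from 0.239% to 19.1% against FaDu and from 0.924% to 26.9% against SCC-9. The block without 1 pair gave 1 call in FaDu without pair 1, 2 or 3, and in SCC-9 without pair 1 or 2. In SCC-9 a fit of its 6 libraries alone also called 1 member (PSMB9, adjusted p = 0.0821). With 1 library left out, 1 to 2 members were called in the average over the lines. The block also called the HLA-B row minus the HLA-C row in SCC-9 (-0.472, adjusted p = 0.0118, edgeR), which is not a fold change of HLA-B. It changed no other call of a member in the treated lines or between untreated lines. Of 66 values of members, each recomputed without 1 library in 18 ways, 1155 of 1188 kept their direction and their side of the threshold, 7 lost and 9 gained the call and 17 turned in sign. Those that turned lay near 0: in FaDu HLA-B (-0.144 to 0.00513 without 1 library), HLA-E (-0.0295 to 0.0373), TAP1 (-0.0992 to 0.0347) and TAP2 (-0.00291 to 0.175), in SCC-9 HLA-B (-0.225 to 0.0837), HLA-C (-0.139 to 0.184) and TAP2 (-0.0524 to 0.0127), and between untreated lines TAP1 (-0.0556 to 0.102, Detroit 562 minus FaDu), HLA-E (-0.00879 to 0.0686, Detroit 562 minus SCC-9) and TAP2 (-0.176 to 0.00147, FaDu minus SCC-9). The untreated TAP1 difference between Detroit 562 and FaDu was also -0.00459 with the block and -0.00849 with a filter of at least 50 counts in 3 libraries. In the block without 1 pair, HLA-E in FaDu stood at -0.0264, and in SCC-9 HLA-B at 0.00167, HLA-C at -0.0439 and TAP2 at 0.0135. The cause was not tested. By gene extent in place of exon length, the order per length changed among neighbors, most in SCC-9, where HLA-E stood above B2M. Long extents lower a gene on that scale by construction. With 3 libraries a group, the exact test of 1 gene cannot go below 0.1.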
